A study of Mus musculus with 14 samples.

Results

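MiR-135a and miR-135b are 2 members of one miRNA family, and their levels were followed in the mouse lung from mid gestation to the adult. They were taken as the rows of the deposited value table with TaqMan assay numbers 460 and 2261, which are 2 of its 516 rows, and both were measured in all 14 samples. The deposited files pair neither number with a name, so that the identity of the rows rests on the manufacturer's assay numbering. Each sample was run on 2 TaqMan array cards, A and B, and all card A layouts hold an assay named mmu-miR-135a and one named mmu-miR-135b. The members were selected on the course of their ΔCT values over the 7 ages, and these values are therefore given as a description and without a test.

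Whole lungs of outbred ICR mice were pooled and total RNA was extracted from them. Each of 7 ages had 2 samples. Of these ages, 4 were embryonic (E12, E14, E16 and E18, in days of gestation), and P2 and P10 were counted in days after birth. The last was adult, with no age in the sample labels. The labels mark all samples as female without saying whether this refers to the embryos or to their dams, and they give no allele or treatment. In the mouse lung, E12 to E16 belong to the pseudoglandular stage of airway branching, E18 and P2 to the saccular stage and P10 to alveolar formation. The 2 samples of an age are not stated to come from separate pools, so that the spread between them may be technical. In pooled whole lung, fewer cells carrying a miRNA and less of it per cell cannot be told apart. Marker miRNAs of lung cell types could not be checked, since the rows carry no names.

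MiRNAs of the miR-135 family pair with target mRNAs mainly through the seed, bases 2 to 8 of the mature strand. In human colorectal cells they are known to repress APC, a negative regulator of Wnt signaling. In mouse cell lines they are known to repress Smad5, a transducer of bone morphogenetic protein signals, and Runx2. Both pathways are active in the branching lung. Mature miRNAs are cut from hairpin precursors, and the arm names 5p and 3p give the side of the hairpin from which a strand comes.

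The sequences are shown because both members share a seed and differ little outside it, which bears on how far 2 assays can separate them. They were taken from RefSeq on build GRCm38.p6, and the capitals mark the seed letters of mmu-miR-135a-5p. This strand has 2 genomic copies, at chr9:106154140-106154162 on the plus strand and at chr10:92072141-92072163 on the minus strand. The hairpins lie at chr1:132198088-132198184 (Mir135b, plus strand), chr9:106154124-106154213 (Mir135a-1, plus strand) and chr10:92072086-92072185 (Mir135a-2, minus strand). For mmu-miR-135b-5p the name alone is given.
mmu-miR-135a-5p: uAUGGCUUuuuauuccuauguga
Mir135b hairpin: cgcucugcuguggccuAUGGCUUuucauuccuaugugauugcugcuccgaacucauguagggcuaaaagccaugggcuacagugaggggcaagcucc
Mir135a-1 hairpin: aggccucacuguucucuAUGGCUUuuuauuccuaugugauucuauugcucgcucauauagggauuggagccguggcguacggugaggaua
Mir135a-2 hairpin: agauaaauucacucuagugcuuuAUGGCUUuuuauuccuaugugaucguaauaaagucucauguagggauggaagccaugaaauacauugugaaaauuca

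The letters AUGGCUU were present in all 3 miR-135 hairpins and in 8 of the 1005 hairpins of the RefSeq table, counted on the printed strand. In an alignment without gaps, 22 of the 23 bases of mmu-miR-135a-5p matched the Mir135b hairpin. The single difference was U11C, counted from 1 at the 5′ end of mmu-miR-135a-5p. Whether the assays tell 2 strands apart that differ at such a position was not tested. Both Mir135a hairpins held all 23 bases, so that a level of miR-135a is the sum over both loci.

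The other arms differed more than the 5p arms, and they are shown because starred assays of this family are on the cards. Their own seeds (bases 2 to 8) are in capitals. None of the 3 shared its 7-base seed with another.
mmu-miR-135b-3p: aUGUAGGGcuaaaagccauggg
mmu-miR-135a-1-3p: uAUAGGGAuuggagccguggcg
mmu-miR-135a-2-3p: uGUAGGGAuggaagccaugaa

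Card B held assays named mmu-miR-135a* and rno-miR-135a* in all 14 samples. Their row numbers are not paired with their names, and no value is given for them. The 3 hairpins have different surroundings in the annotation. The Mir135b hairpin lies within the spans of the protein-coding gene Lemd1 and the lncRNA Gm29695. The Mir135a-1 hairpin lies within those of the protein-coding gene Glyctk and the lncRNA D030055H07Rik. No other gene spans the Mir135a-2 hairpin, and the nearest is the lncRNA Rmst, 9561 bases away. Exons and introns were not looked up here.

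The measure was ΔCT, the threshold cycle (CT) of an assay minus that of the small nuclear RNA U6. The level is thus higher where ΔCT is lower, and a difference of 1 cycle stands for 2-fold if each cycle doubles the product. Between 272 and 335 assays were measured per sample, of which 219 were measured in all samples. The mean ΔCT of these 219 assays (the global mean) shifted with age, from 11.6 and 11.4 at E12 to 9.94 and 10.4 at E18. It was 11.6 and 11.0 in the P2 samples. The differences between ages are therefore given under both scalings. Over the whole table, limma called 118 assays (37% of 319) higher and 1 (0.313%) lower at E18 than at E12 against U6, and 50 higher and 72 lower with the global mean. In the adult against E18 it called 18 (6.23% of 289) higher and 80 (27.7%) lower, and 65 and 55 with the global mean. In the adult against E12 it called 90 (31.6% of 285) higher and 61 (21.4%) lower, and 77 and 83 with the global mean. An adjusted p below 0.05 was called, and the members are not among the results drawn from these calls.

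The mean level of miR-135b against U6 was higher at each successive embryonic age, highest at E18, and lower at each age after birth. Its mean ΔCT was 8.10 ± 0.02 (SD, n = 2) at E18. In the adult it was 14.2 ± 0.007 (SD, n = 2), a 67.2-fold lower level. At E12 the 2 samples had a ΔCT of 10.00 and 10.2. At E14 the values were 9.22 and 10.1, and at E16 they were 9.08 and 8.20. Both E18 samples were close together, at 8.09 and 8.12. The nearest sample of another age, E16 replicate 2 at 8.20, lay only 0.09 cycle above them. With the global mean subtracted, E16 replicate 2 was at -2.73 cycles, a higher level than both E18 samples (-1.85 and -2.26). At P2 the ΔCT values were 11.2 and 10.3. At P10 they were 13.1 in both samples, and in the adult they were 14.2 in both. The 6 postnatal samples all had a lower level of miR-135b than the 8 embryonic samples. The nearest of them, at E12 and P2, were only 0.12 cycle apart. Between these 2 ages 38.6% of the assays were lower without overlap. The share of assays that set all postnatal samples apart was not counted.

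Against U6 the level of miR-135a stayed within about 1 cycle up to P2 and was lower at P10 and in the adult. With the global mean subtracted it was less even, as the samples up to P2 ran from 2.38 cycles at E12 to 4.73 at E18. Its mean ΔCT was 14.1 ± 0.10 (SD, n = 2) at E12, 14.7 ± 0.65 (SD, n = 2) at P2 and 17.1 ± 0.03 (SD, n = 2) at P10. At E12 the samples had a ΔCT of 14.0 and 14.2, and at E14 of 15.2 in both, a step of -1.12 on the log2 scale against U6 that left no overlap, as in 30.1% of the assays. With the global mean this step was -1.20, again without overlap, as in 28.7% of the assays. At E16 they were 14.1 and 14.2. The samples of E18 and of P2 each lay about 1 cycle apart, with 14.1 and 15.1 at E18, and 15.2 and 14.3 at P2. At P10 both were 17.1, and in the adult they were 17.1 and 17.2. All 10 samples up to P2 lay between 14.0 and 15.2, and the 4 later samples were separated from them by more than 1 cycle. The nearest were at E14 and P10, ages between which 24.1% of the assays were lower without overlap. The share of assays with the whole separation was not counted.

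**Figure D1:**
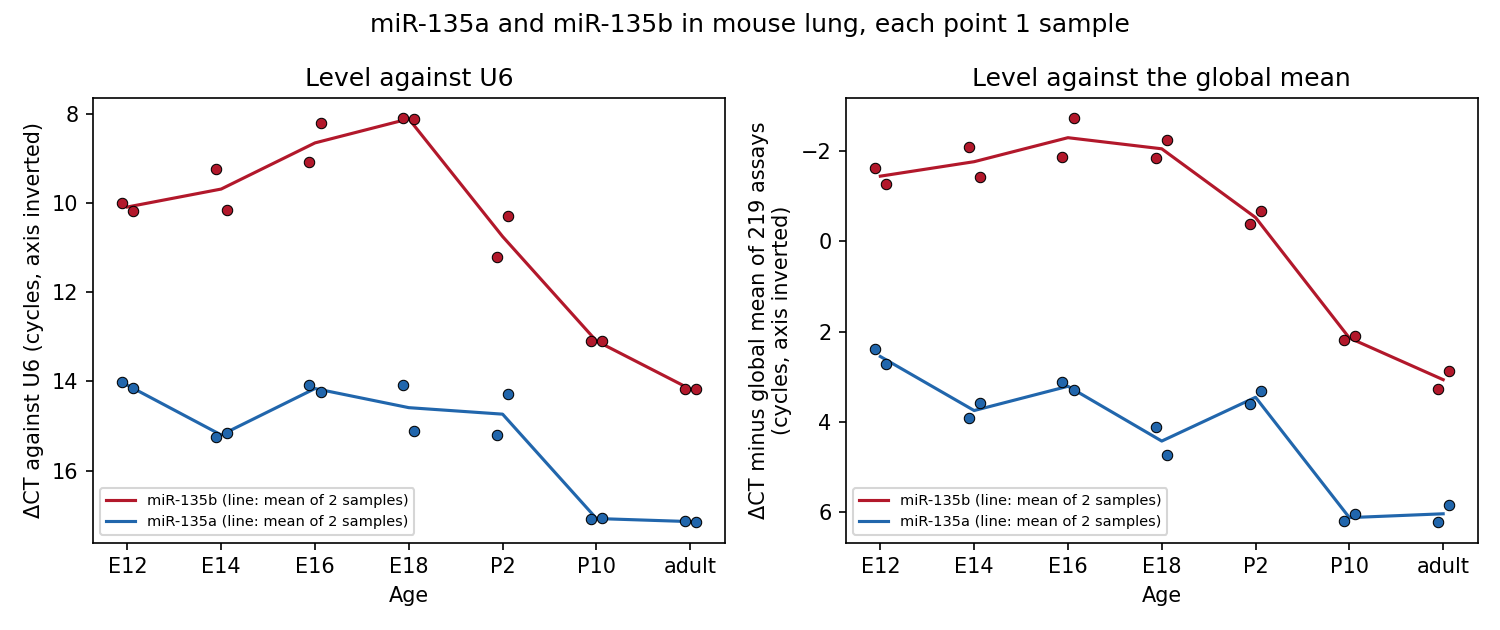
ΔCT of miR-135b (red) and miR-135a (blue) in each of the 14 samples (points) with the mean of each age (lines), against U6 (left) and after subtraction of the global mean, over the 219 assays with a value in every sample (right). Both axes are in cycles and inverted, so that a higher level is further up; miR-135b runs from 8.10 at E18 to 14.2 in the adult, and miR-135a is lower at P10 and in the adult than at all earlier ages.

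The values of both members lay near whole cycles. All 28 values were between 0.0009 below and 0.283 above a whole number of cycles. The ΔCT of miR-135a minus that of miR-135b lay within 0.04 cycle of a whole number in all 14 samples. An SD of 0.02 or 0.007 therefore comes from 2 samples near the same whole cycle, and an SD of about 0.65 from samples about 1 cycle apart. Neither is read as a spread finer than 1 cycle. Pooled over the 7 ages, the SD within an age was 0.42 cycle for miR-135b and 0.38 for miR-135a.

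By mean level against U6, miR-135b ran from E18 over E16, E14, E12, P2 and P10 to the adult. The samples of E14 and E12 overlapped. The nearest samples of E18 and E16 were 0.09 cycle apart, those of E16 and E14 0.14 apart and those of E12 and P2 0.12 apart, all far less than 1 cycle. At these pairs of ages 59.5%, 48.8% and 38.6% of the assays were apart in the same direction. P2 and P10 were 1.88 cycles apart at their nearest samples, and P10 and adult 1.07. For miR-135a the order was E12, E16, E18, P2, E14, P10 and adult, and the samples of each of the first 4 ages overlapped with those of the next in the order. Between E14 and P10 the nearest samples were 1.81 cycles apart, and 24.1% of the assays were lower without overlap. P10 and adult differed by 0.07 in their means. The order depended on the scaling. Against the global mean miR-135b ran from E16 over E18, E14 and E12 to P2, P10 and adult, and the samples of each of the 4 embryonic ages overlapped with those of the next embryonic age in this order. MiR-135a then ran from E12 over E16, P2, E14 and E18 to adult and P10, with overlap between P2 and E14 and between adult and P10.

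The difference between E12 and E18 was unlike for the members. From E12 to E18 the level of miR-135b against U6 differed by 1.98 on the log2 scale (SE 0.44 in limma), a 3.95-fold higher level. The samples did not overlap, which also held for 65.9% of the assays measured at both ages in the direction of a higher level. The median difference over the 219 assays was 1.01, and 74 of them had a larger difference than miR-135b. Against the global mean the difference of miR-135b was 0.61 (1.52-fold), still without overlap (25.8% of the assays), and its highest mean was then at E16. MiR-135a had a difference of -0.50 (SE 0.41) against U6, with overlapping samples, and of -1.88 against the global mean, without overlap (41.2% of the assays). Of the 219 assays, 14 had a lower difference than miR-135a against U6. E18 replicate 1 and replicate 2 decided that value against U6, since it was -1.02 without the first and 0.015 without the second.

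Across birth, from E18 to P2, the members also differed. The level of miR-135b was 6.25-fold lower at P2 against U6 (log2 difference -2.64, SE 0.44). Its samples did not overlap, which was common at this step, as 84.9% of the assays were lower without overlap against U6 and 27.7% against the global mean. Against the global mean miR-135b was 2.88-fold lower at P2, again without overlap. MiR-135a had a log2 difference of -0.15 (SE 0.41) against U6 and of 0.97 against the global mean, so that the sign turned with the scaling. Its samples overlapped against U6 and not against the global mean, where 29.2% of the assays were higher without overlap. It also turned with single samples, from -0.66 without E18 replicate 2 to 0.37 without E18 replicate 1. The median difference of the 219 assays was -1.13 against U6.

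From P2 to P10 the difference in level was nearly equal for both members. Their values lay near whole cycles, so that a finer difference between them could not be seen. At P10 miR-135a was also near the weakest signals measured, with 8 and 13 assays of the sample at a higher ΔCT. Whether its assay could follow a further fall was not tested. The log2 difference against U6 was -2.35 (SE 0.44) for miR-135b and -2.34 (SE 0.41) for miR-135a, a 5.09-fold and a 5.08-fold lower level. The samples of both members did not overlap, against 15.6% of the assays lower without overlap at this step. The median of the 219 assays ran the other way, at 0.64, and 7 of them had a lower difference than miR-135b and 8 a lower one than miR-135a. The 2 samples of P2 lay about 1 cycle apart for both members, and without P2 replicate 1 or replicate 2 the difference was -2.81 or -1.88 for miR-135b and -2.80 or -1.88 for miR-135a. Against the global mean the differences were -2.67 for both, against 30.1% of the assays lower without overlap.

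Between P10 and the adult the level of miR-135b differed by about 1 cycle and that of miR-135a by less than 0.1 cycle. Its log2 difference was -1.08 (SE 0.44) against U6 and -0.93 against the global mean, without overlap of the samples under either scaling. Of the assays, 52.5% were lower without overlap against U6 and 33.5% against the global mean. MiR-135a differed by -0.07 (SE 0.41) against U6, with 0.03 cycle between the nearest samples, and by 0.09 against the global mean, with overlap.

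**Figure D2:**
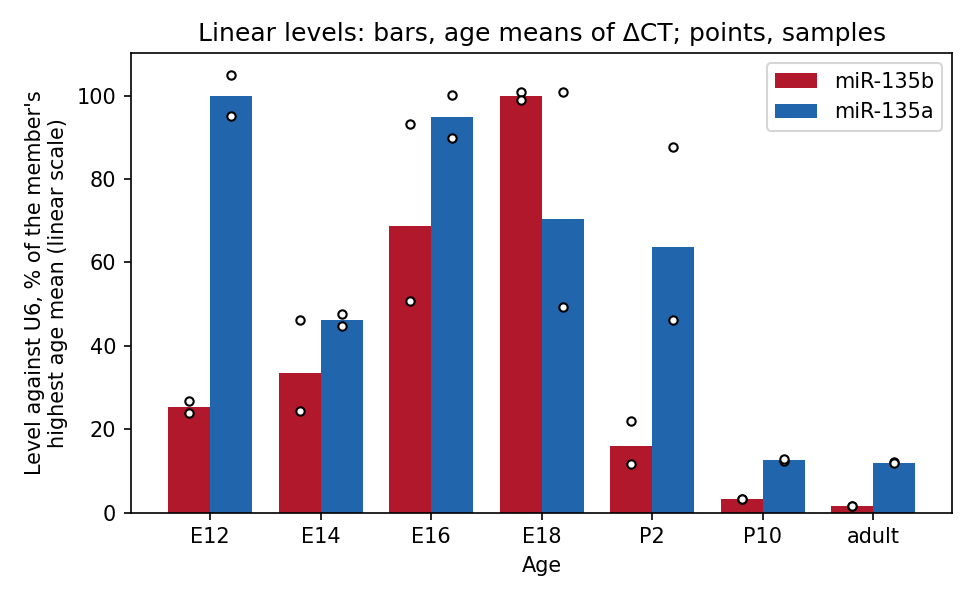
Level against U6 on a linear scale, as a percentage of the highest age mean of the same member, for miR-135b (red) and miR-135a (blue). Bars are 2 to the power of minus the mean ΔCT, points are single samples, and the bars of the adult reach 1.49% for miR-135b and 12.0% for miR-135a.

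Over the whole course, the adult level of miR-135b was 1.49% of that at E18, and the adult level of miR-135a was 12.0% of that at E12. From E18 to adult the log2 difference was -6.07 (SE 0.44) for miR-135b and -2.56 (SE 0.41) for miR-135a against U6. Of the 219 assays, 3 had a lower difference than miR-135b and 36 a lower one than miR-135a, with a median of -0.58. Against the global mean these differences were -5.12 (34.9-fold) and -1.61 (3.06-fold). Neither member had overlapping samples, against 62.6% of assays lower without overlap against U6 and 28.5% with the global mean. From E12 to adult the difference was -4.09 (17.0-fold) for miR-135b and -3.06 (8.36-fold) for miR-135a, and -4.52 and -3.49 against the global mean. Again no samples overlapped, against 30.5% of assays lower without overlap with U6 and 37.7% with the global mean.

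The range between the highest and the lowest age mean put miR-135b among the most variable of the 219 assays measured in all samples. Assays with a blank in any sample were left out of this ranking. The members were selected on this course, so that the rank is a description. The range of miR-135b was 6.07 on the log2 scale against U6, and 9 of the 219 assays had a wider one. MiR-135a had a range of 3.06, with 79 assays wider, beside a median range of 2.54. With the global mean the ranges were 5.37 and 3.58, with 16 and 49 assays wider. The lowest level of miR-135b was in the adult under both scalings. That of miR-135a was in the adult against U6 and at P10 against the global mean, with overlapping samples of these 2 ages.

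**Figure D3:**
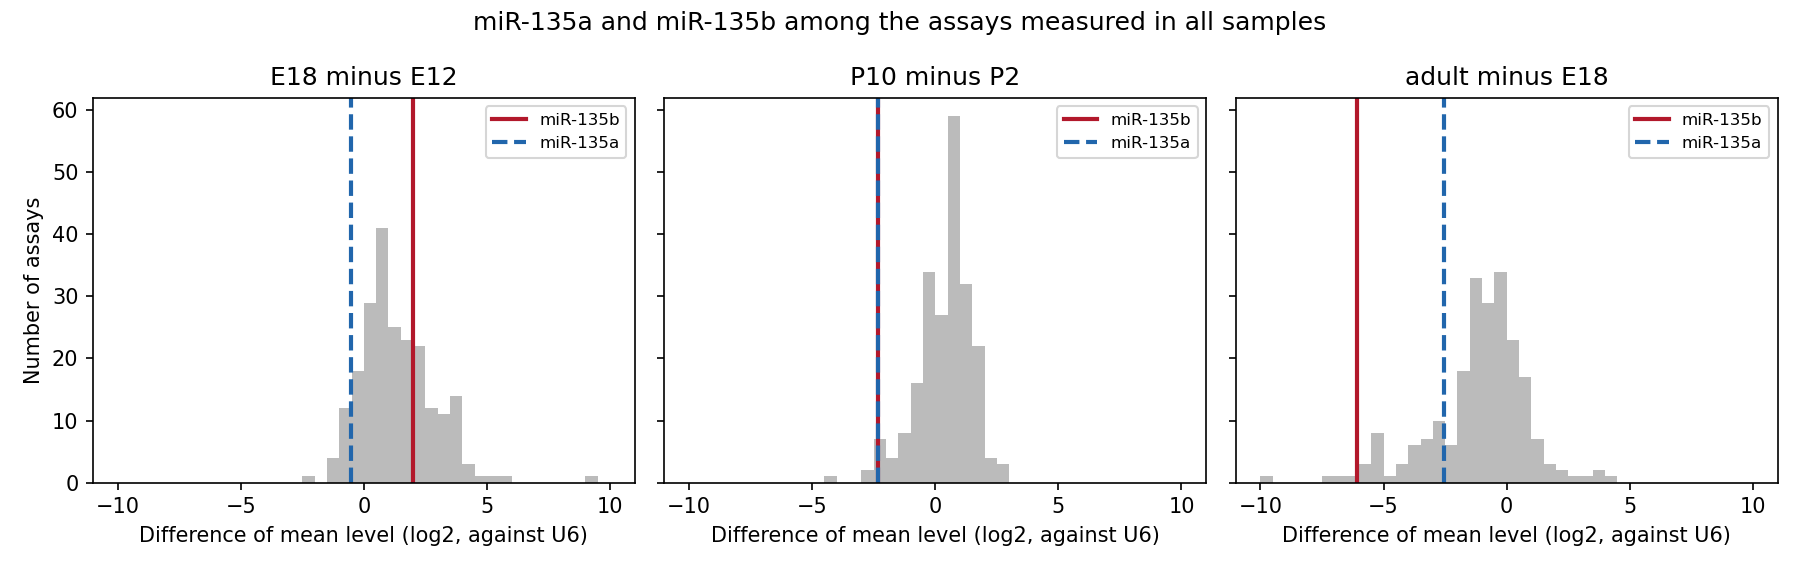
Distribution of the difference of mean level (log2, against U6) over the 219 assays measured in all samples, for E18 minus E12, P10 minus P2 and adult minus E18. Vertical lines mark miR-135b (red, solid) and miR-135a (blue, dashed), which fall together at P10 minus P2 (-2.35 and -2.34) and apart in the other 2 panels.

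The gap between the members within a sample showed where their courses parted. Both names are on card A, so that U6 and any other scaling of a sample cancel in the ΔCT of miR-135a minus that of miR-135b. The gap is also set by the efficiency of the 2 assays, and only its change is read here. It was 4 whole cycles in both samples at E12. It was 6 and 5 at E14, 5 and 6 at E16 and 6 and 7 at E18. At P2 and at P10 it was 4 in all 4 samples, and in the adult it was 3 in both. The mean gap thus went from 4.0 ± 0.02 (SD, n = 2) at E12 to 6.49 ± 0.71 (SD, n = 2) at E18. In the adult it was 2.98 ± 0.02 (SD, n = 2). From E18 to adult it narrowed by 3.51 cycles, and by between 3.01 and 4.02 when single samples were left out. At P10 and in the adult miR-135a was near the weakest signals measured. Whether its assay could follow a further fall there, and so how far this bears on the gap, was not tested. All 6 samples from E14 to E18 had a wider gap than any of the other 8.

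**Figure D4:**
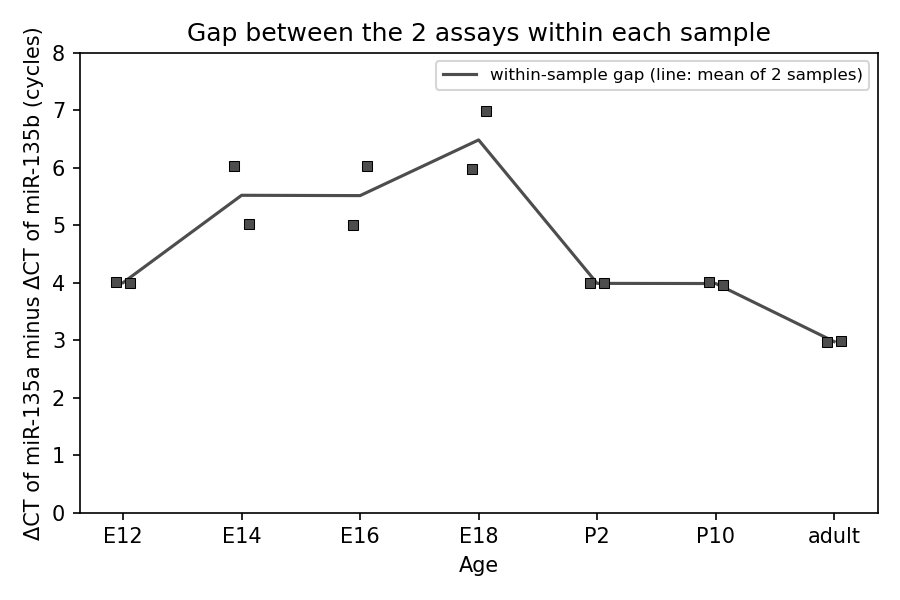
ΔCT of miR-135a minus ΔCT of miR-135b, in cycles, in each sample (squares) with the mean of each age (line). The gap is 4.0 at E12, reaches 6.49 at E18, returns to 3.99 at P2 and P10 and is 2.98 in the adult.

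The 2 members also differed in how much of the table lay beyond them. In the 8 embryonic samples between 11.0% and 29.5% of the measured assays had a lower ΔCT than miR-135b, and in the 2 adult samples 73.8% and 73.3% did. For miR-135a the share was between 65.8% and 83.0% before birth. At P10 it was 96.7% and 95.0%, and in the adult 93.8% and 94.5%. Such a position also depends on the efficiency of each assay. At P10 and in the adult miR-135a was thus near the weakest signals measured, with between 8 and 17 assays of the sample at a higher ΔCT. The highest ΔCT in these 4 samples lay between 17.5 and 19.4. Whether such a signal can follow a further fall was not tested.

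The days on which the card A files were last modified followed the ages in part, and they are not stated to be the run days. The card A files of the 14 samples were last modified on 7 days, and 2 ages had both samples on 1 day. Within the samples that shared such a day, the log2 difference of miR-135b against U6 was -3.09 from E18 to P2, -2.80 between P2 and P10 and -1.07 between P10 and adult, with 2 samples for each. With the global mean these were -1.88, -2.87 and -1.18. For miR-135a they were -0.09, -2.83 and -0.07 against U6, and 1.13, -2.89 and -0.18 against the global mean. The signs of miR-135b were thus the same under both scalings, and that of miR-135a from E18 to P2 turned. From E16 to E18 (3 samples), miR-135b differed by 0.55 and miR-135a by 0.09 against U6, and by -0.45 and -0.91 against the global mean, so that both signs turned. From E12 to E14 (3 samples) they differed by 0.86 and -1.16 against U6, and by 0.65 and -1.37 against the global mean. No day held samples of both E14 and E16.

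The assays with the course most like that of miR-135b were sought by Pearson r over the 7 age means, among the 219 assays measured in all samples. These correlations describe the table, since all assays share the samples and the scaling. The nearest was assay 2600 (r = 0.99 against U6), followed by assay 2532 (r = 0.98). The level of assay 2600 was higher at E18 than in the adult by 3.05 on the log2 scale, against 6.07 for miR-135b. Of the 5 nearest assays against U6, 4 were also among the 5 nearest with the global mean. For miR-135a the nearest were assay 2365 (r = 0.95) and assay 2332 (r = 0.94), and 2 of its 5 nearest were kept with the global mean. Above r = 0.9 there were 23 assays for miR-135b and 6 for miR-135a. The members correlated with each other at r = 0.89 against U6 and 0.85 with the global mean. Among the assays by likeness, miR-135a was 26th for miR-135b and miR-135b was 9th for miR-135a against U6. The names of these assays are not paired with their numbers in the files.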

How the data were processed

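The deposited values were ΔCT, which the authors treated as log2 values. According to the methods, pooled primers served for reverse transcription, the product was run on TaqMan Rodent MicroRNA Array cards A and B, and CT was read with RQ manager and set against U6. Per the methods undetermined reactions took an upper CT limit, but 2888 of the 7224 deposited cells were blank, and blanks were treated here as not measured. The run files hold the card layout and no CT, and were used for assay names and for the day of each file. Of the values of E14 replicate 2, 5 that were under 0.001 were dropped, and neither member was among them.

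Expression was taken as minus ΔCT. The 350 assays with values in both samples of 1 or more ages were fitted with limma 3.58.1 in R 4.3.3, with 1 mean per age over all 14 samples, and moderated tests were two-sided with Benjamini-Hochberg adjustment. The fit gave the standard errors and the calls over the table. The number of samples limits the precision. The fit was tested on simulated data. Not overlapping means that all samples of one age lay beyond all samples of the other, over the assays measured in all 4 samples. Members and lists were chosen with earlier results of these data known. Besides the members, the 5 assays most like each were sought and at most 2 were printed by number. The other arm and the miR-200 family were to be named only where names were paired with numbers, and were not reported here. Alternatives were the global mean, blanks at the highest deposited ΔCT, other filters, a variance trend, the replicate number and the card A file day as blocks, and leaving out each sample. The file day as a block for the calls over the table was added after seeing the data. The file-day fit covered E16 to adult, since no day joined E14 with E16.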

Additional observations from a re-analysis of the deposited data

How the results depend on the processing

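The global mean moved most values. For miR-135b the log2 differences became 0.61 from E12 to E18, -1.53 from E18 to P2, -5.12 from E18 to adult and -4.52 from E12 to adult, and the highest age E16 in place of E18. For miR-135a they became -1.88, 0.97, -1.61 and -3.49, and the lowest age P10 in place of adult. The calls over the table became 50 higher and 72 lower from E12 to E18, and 65 higher from E18 to adult. With the card A file day as a block, miR-135b differed by -3.09 (SE 0.70) from E18 to P2 and -2.80 (SE 0.70) from P2 to P10. From E18 to adult it differed by -6.97 (SE 1.21). MiR-135a differed by -2.83 (SE 0.68) from P2 to P10 and -2.99 (SE 1.17) from E18 to adult. After E18 these values rest on the same sample pairs as the within-day differences given above, and are no separate check of them. With this block, chosen for the calls after seeing the data, 8 assays were called higher and 40 lower from E18 to adult. The cause of these shifts was not tested. Lower calls from E12 to E18, 1 in the main fit, were 7 with blanks at the common floor, 2 with the assays measured in all samples only and 2 with the replicate number as a block.

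The samples of one number were treated as not paired. Deviations of same-numbered samples correlated between -0.42 and 0.24 over 21 pairs of ages (median -0.02). Such correlations cannot settle whether samples of one number shared a preparation. Every age held both replicate numbers, so the replicate block could not change the differences of the members (1.98 for miR-135b from E12 to E18). It changed only their SE, to 0.49 for miR-135b and 0.47 for miR-135a.

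Leaving out single samples gave, for miR-135b, 1.90 to 2.06 from E12 to E18, -3.11 to -2.18 from E18 to P2, -2.81 to -1.88 from P2 to P10, -6.08 to -6.06 from E18 to adult and -4.17 to -4.01 from E12 to adult. For miR-135a it gave -1.02 to 0.015, -0.66 to 0.37, -2.80 to -1.88, -3.08 to -2.04 and -3.13 to -2.99. The highest age of miR-135a was E16 without E16 replicate 2 and E18 without E18 replicate 2, and E12 otherwise. The gap narrowed by 3.01 to 4.02 cycles. Calls were 71 to 122 higher and 1 to 3 lower from E12 to E18, 11 to 20 higher and 56 to 88 lower from E18 to adult, and 64 to 92 higher and 46 to 61 lower from E12 to adult. Of the counts above 1, those that moved by over 1.5 times were 71 without E18 replicate 1 and 75 without E12 replicate 1 (higher from E12 to E18) and 11 without adult replicate 1 (higher from E18 to adult). Values near whole cycles and 2 samples per age limit what can be resolved.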
